A study of Homo sapiens with 8 samples.

Results

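The integrated stress response and the unfolded protein response were followed through 37 genes, chosen by name and matched to the rows of the gene count table through their Ensembl gene IDs. All 37 were found among 40295 gene IDs, and 36 of them were among the 16519 genes with enough reads to be tested. CBS, cystathionine beta-synthase, was left untested because its highest level in any library was 0.123 CPM (counts-per-million, scaled for library composition). The genes were read in 3 sets. The ATF4-type set holds 13 genes of amino acid synthesis and transport. The ER set holds 11 genes for endoplasmic reticulum (ER) sensors, chaperones and ER-associated degradation. The other 13 are regulators and stress outputs of the integrated stress response.

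In the integrated stress response, kinases that sense amino acid shortage, viral RNA, heme loss or ER stress phosphorylate the translation factor eIF2, which lowers general translation and raises translation of the transcription factor ATF4. ATF4, often with C/EBP partners, turns on genes that make and import amino acids, as well as DDIT3 (CHOP), TRIB3 and CHAC1. The unfolded protein response shares the ER-stress kinase and adds 2 transcription factors, XBP1, which is activated by splicing through ERN1 (IRE1), and ATF6, which is released by cleavage; their targets are ER chaperones and degradation factors. Gene counts show neither the translation of ATF4, nor the splicing of XBP1, nor the cleavage of ATF6.

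The cells were HCT116, a human colorectal carcinoma line, and HCT116 cells with the MED12 change E33Q placed by CRISPR-Cas9 knock-in. The latter are called the knock-in line here. Gene counts do not show the substituted codon. MED12 is the Mediator subunit that activates the kinase CDK8, and CDK8 takes part in transcription under interferon-γ (IFN-γ). Each line was collected untreated (0 h) or after 24 h with IFN-γ at 5 ng/ml, with 2 libraries for each of the 4 groups and rRNA-depleted total RNA as input. All groups shared the HCT116 background and the same culture medium. The series describes the 2 libraries of a group as biological replicates without saying how they were separated, so the p-values measure the spread between these libraries. The labels do not say how many clones the knock-in libraries stand for. E33Q and other differences of the knock-in cells therefore cannot be told apart. IFN-γ and 24 h of further culture cannot be told apart either, because the untreated libraries were taken at 0 h.

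The libraries held between 20901909 and 28045842 estimated counts. Epithelial markers summed to between 2285 and 5128 CPM, with 7 or 8 of 8 detected in each library. Markers of plasma cells and B cells, which a cultured epithelial line should lack, summed to between 279.5 and 404.9 CPM over 14 genes in both untreated wild-type libraries and in both knock-in libraries numbered 2. The same sum was between 2.56 and 4.04 CPM in the other 4 libraries, where IGKC, IGHA1, IGHA2 and TNFRSF17 were at 0. CD27 was at 0 in all 8. The GC content of the counted transcripts was between 46.0% and 47.4% in untreated libraries and between 48.7% and 48.8% after IFN-γ. Spike-in (ERCC) counts were between 0.110% and 0.141% of untreated libraries and between 0.228% and 0.271% of treated ones.

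The sets were also described by promoter sequence, because ATF4 and the ER factors are known to bind different short elements. The elements were chosen as already known for such genes, so their matches are no independent test of the split into sets. RefSeq promoters (GRCh38.p14) were matched for 33 of the 37 genes and searched on both strands from 250 bases before to 50 after each start. The C/EBP-ATF composite element (CARE), TGATGNAA, was present in 3.62% of 35116 promoters. The ER stress element (ERSE), CCAAT followed by 9 bases and CCACG, was present in 0.0769%, and ERSE-II (ATTGG, any base, CCACG) in 0.0541%. The UPR element (UPRE) TGACGTGG, whose complement holds the CCACG of the ERSE, was present in 0.729%. The IFN-γ-activated sequence (GAS) TTCNNNGAA was present in 7.66%. Among all 27305 genes with a promoter in the table, 4.46% had a CARE and 0.0916% an ERSE in at least 1 promoter.

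Among the matched genes, CARE was found in 3 of 10 ATF4-type genes (ASNS, SLC3A2, SLC7A1), 2 of 12 regulators (CEBPG, CHAC1) and 1 of 11 ER genes (HERPUD1). The CARE of SLC3A2 and that of SLC7A1 began downstream of the start, by 37 and 7 bases. ERSE was found in 3 of 11 ER genes (HSPA5, HSP90B1, XBP1) and in 0 of the 22 others. HERPUD1 also held the only ERSE-II match, UPRE matched in 0 genes and GAS in SLC3A2 alone. The 250 bases upstream of the start are shown for the gene pairs that contrast the elements, with each match in capitals: ASNS (chr7:97872409-97872658, minus strand) and CHAC1 (chr15:40953221-40953470, plus strand) for CARE; HSPA5 (chr9:125241344-125241593, minus), HSP90B1 (chr12:103930160-103930409, plus) and XBP1 (chr22:28800570-28800819, minus) for ERSE; and HERPUD1 (chr16:56931892-56932141, plus), whose first match is CARE and second ERSE-II. In CHAC1 and HERPUD1 the CARE letters run on the opposite strand, as does the second ERSE of HSP90B1.
ASNS: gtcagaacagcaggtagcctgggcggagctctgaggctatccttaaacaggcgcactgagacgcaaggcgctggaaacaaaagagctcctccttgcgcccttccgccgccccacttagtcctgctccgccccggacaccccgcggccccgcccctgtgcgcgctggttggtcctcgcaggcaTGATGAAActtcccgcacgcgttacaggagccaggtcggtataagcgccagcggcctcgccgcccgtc
CHAC1: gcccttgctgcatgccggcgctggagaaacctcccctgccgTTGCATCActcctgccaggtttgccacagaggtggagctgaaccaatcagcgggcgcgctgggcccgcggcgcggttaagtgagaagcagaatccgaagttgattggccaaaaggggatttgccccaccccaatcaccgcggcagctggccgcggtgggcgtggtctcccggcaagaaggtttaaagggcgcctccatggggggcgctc
HSPA5: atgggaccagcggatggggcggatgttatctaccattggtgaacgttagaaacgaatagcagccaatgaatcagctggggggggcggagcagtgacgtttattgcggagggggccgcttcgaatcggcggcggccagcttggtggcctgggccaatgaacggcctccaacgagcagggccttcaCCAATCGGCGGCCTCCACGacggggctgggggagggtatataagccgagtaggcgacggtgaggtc
HSP90B1: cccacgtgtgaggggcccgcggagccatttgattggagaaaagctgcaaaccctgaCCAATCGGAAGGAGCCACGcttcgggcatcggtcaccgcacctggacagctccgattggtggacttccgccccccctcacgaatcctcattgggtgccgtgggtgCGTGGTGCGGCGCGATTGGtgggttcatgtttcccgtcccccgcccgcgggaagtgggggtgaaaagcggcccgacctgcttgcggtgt
XBP1: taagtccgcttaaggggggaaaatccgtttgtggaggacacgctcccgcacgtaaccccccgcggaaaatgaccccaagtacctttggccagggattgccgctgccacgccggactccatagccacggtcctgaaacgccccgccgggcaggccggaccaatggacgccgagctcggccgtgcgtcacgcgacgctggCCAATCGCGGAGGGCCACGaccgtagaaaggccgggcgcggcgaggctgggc
HERPUD1: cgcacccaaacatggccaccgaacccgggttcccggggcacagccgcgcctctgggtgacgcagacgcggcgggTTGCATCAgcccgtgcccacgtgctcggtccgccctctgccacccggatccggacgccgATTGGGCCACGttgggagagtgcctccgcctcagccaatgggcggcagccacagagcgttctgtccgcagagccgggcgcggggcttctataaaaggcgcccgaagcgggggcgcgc
The CARE of ASNS began 68 bases upstream of the start and that of CHAC1 209 bases upstream. The ERSE of HSPA5 began 66 bases upstream, that of XBP1 52, and the pair in HSP90B1 194 and 89. A match gives letters in a window and no measure of binding.

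Levels per kilobase of the longest annotated transcript, averaged over 2 libraries, put the ER chaperone HSP90B1 (GRP94) highest in untreated wild-type cells at 733.5 CPM per kb. ATF4 followed at 307.9, the ER chaperone HSPA5 (BiP) at 178.6, the mitochondrial folate enzyme MTHFD2 at 153.1 and the disulfide isomerase PDIA4 at 150.9 CPM per kb, the last pair differing by less than the spread of their libraries. At the low end, CHAC1 stood at 1.65, the glycine transporter SLC6A9 at 1.00, the stress-induced chromatin protein NUPR1 at 0.329 and the lipoprotein receptor VLDLR at 0.0328 CPM per kb. VLDLR stayed under 1 CPM in all 8 libraries and was called in no comparison. An unnamed second gene ID carried counts identical to those of SESN2, so the level of SESN2 is uncertain. ATF5, DDIT3 and DNAJB9 overlap other genes, and the strand setting of the counting is not given in the sources used here.

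**Figure D1:**
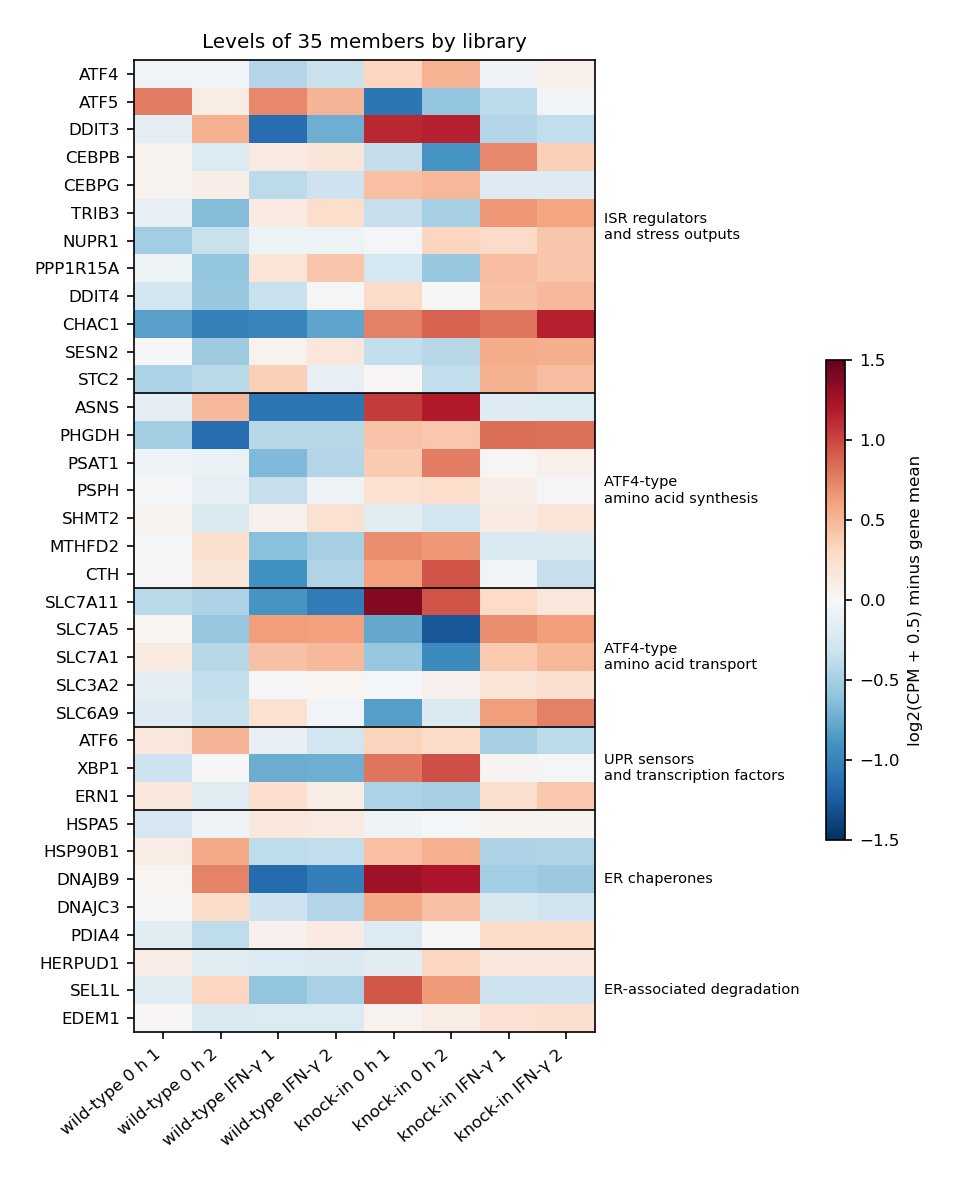
Heat map of log2(CPM + 0.5) minus each gene's mean over the 8 libraries, for 35 of the 36 tested genes (VLDLR, under 1 CPM, is left out); rows are genes by group, columns are libraries. Knock-in libraries are high for CHAC1, PHGDH and SLC7A11 at both time points, and treated libraries of both lines are low for ASNS and DNAJB9.

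The first question was whether the lines differed before treatment. In untreated cells 10 of 36 genes were called higher in the knock-in line (27.8%) and 1 lower, where 4.26% of all 16519 tested genes were called higher and 4.17% lower (edgeR quasi-likelihood test, Benjamini-Hochberg adjusted p under 0.05). The genes called higher were ATF4, DDIT3 and CHAC1 among the regulators; ASNS, PHGDH, PSAT1, MTHFD2 and SLC7A11 in the ATF4-type set; and XBP1 and SEL1L in the ER set. The one called lower was ATF5, a transcription factor related to ATF4. The median log2 difference was 0.44 over the 12 tested ATF4-type genes, 0.29 over the 13 regulators and 0.18 over the 11 ER genes, beside −0.02 over all tested genes. For CBS the counts were too low to say.

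Among the regulators, CHAC1 (chr15:40952962-40956519), which degrades glutathione, was the gene with the largest difference. It was at 3.31 and 2.81 CPM in the untreated wild-type libraries and at 10.8 and 11.8 CPM in the knock-in libraries, a log2 difference of 1.88 ± 0.24 (SE, adjusted p = 0.00253), or 3.69-fold. The groups were far apart, and the call held when each of the 8 libraries was left out in turn (log2 1.77 to 2.01). ATF4 itself was at 620.6 and 622.7 CPM in wild-type and 795.5 and 916.9 CPM in knock-in cells (log2 0.46 ± 0.12, adjusted p = 0.0480). DDIT3, the pro-apoptotic transcription factor CHOP, was at 12.9 and 20.6 CPM in wild-type and 31.7 and 32.2 CPM in knock-in cells (log2 0.93 ± 0.24, adjusted p = 0.0443). Neither pair of groups overlapped, but both calls held in only 1 of the 8 fits that left out a library. ATF5 went the other way, from 14.2 and 8.82 CPM in wild-type to 3.57 and 5.21 CPM in knock-in cells (log2 −1.38 ± 0.30, adjusted p = 0.0245).

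The other 9 regulators were not called. Of these, CEBPG, which pairs with ATF4 on CARE sites, had a log2 difference of 0.40 (adjusted p = 0.0642) and DDIT4, an inhibitor of mTOR complex 1, one of 0.58 (adjusted p = 0.0622). TRIB3, PPP1R15A and SESN2 lay between −0.16 and −0.06. TRIB3 is a pseudokinase that inhibits ATF4 and PPP1R15A directs a phosphatase to eIF2, and for both the libraries of the lines overlapped.

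In the ATF4-type set 4 of 7 tested synthesis genes and 1 of 5 transporters were called higher, beside 4.26% of all tested genes. PHGDH (chr1:119648411-119744226), the first enzyme of serine synthesis, was at 76.7 and 49.4 CPM in wild-type and 147.8 and 146.2 CPM in knock-in cells (log2 1.22 ± 0.19, adjusted p = 0.00565). PSAT1, the next enzyme, was at 190.6 and 183.6 CPM in wild-type and 259.0 and 337.2 CPM in knock-in cells (log2 0.67 ± 0.15, adjusted p = 0.0296). Both enzymes were higher in each knock-in library than in either wild-type library. PSPH, which finishes serine synthesis, had a difference of 0.32 that was not called (adjusted p = 0.179), and SHMT2, which turns serine into glycine in mitochondria, had −0.14 with overlapping groups. MTHFD2, downstream of SHMT2, was called at 0.57 (adjusted p = 0.0275).

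ASNS (chr7:97852118-97872542), asparagine synthetase, was at 109.8 and 169.9 CPM in wild-type and 251.1 and 277.6 CPM in knock-in cells (log2 0.92 ± 0.19, adjusted p = 0.0201). SLC7A11 (chr4:138164097-138242349), the cystine importer, was at 74.8 and 72.2 CPM in wild-type and 259.7 and 192.1 CPM in knock-in cells, a log2 difference of 1.62 ± 0.16 (adjusted p = 7.519e-04), or 3.07-fold. It was the gene of the set with the smallest adjusted p, and its call held in all 8 leave-one-out fits. The other 4 transporters were not called: the leucine transporter SLC7A5 was at −0.75 (adjusted p = 0.0587), the arginine transporter SLC7A1 at −0.64 (adjusted p = 0.0745), SLC6A9 at −0.26 and SLC3A2, the partner chain of both SLC7A5 and SLC7A11, at 0.27 (adjusted p = 0.193).

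In the ER set, XBP1 (chr22:28794555-28800597) was at 76.2 and 95.2 CPM in wild-type and 166.1 and 185.6 CPM in knock-in cells (log2 1.04 ± 0.14, adjusted p = 0.00343), or 2.05-fold. SEL1L, a core part of the ER degradation complex, was at 138.2 and 196.0 CPM in wild-type and 298.1 and 243.1 CPM in knock-in cells (log2 0.70 ± 0.18, adjusted p = 0.0429). The knock-in libraries were the higher ones for both genes. Plasma cell and B cell markers summed to 2.56 and 353.4 CPM in these knock-in libraries and to 358.2 and 404.9 CPM in the wild-type libraries. Whether such transcripts have a part in the levels of XBP1 and SEL1L was not tested. None of the 5 chaperones was called: their log2 differences ran from 0.12 (HSPA5) to 0.84 (DNAJB9, adjusted p = 0.0545). ATF6 was at −0.05 and ERN1, the sensor that splices XBP1, at −0.50 (adjusted p = 0.113). In these bulk libraries, fewer cells of a type and less RNA per cell cannot be told apart.

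**Figure D2:**
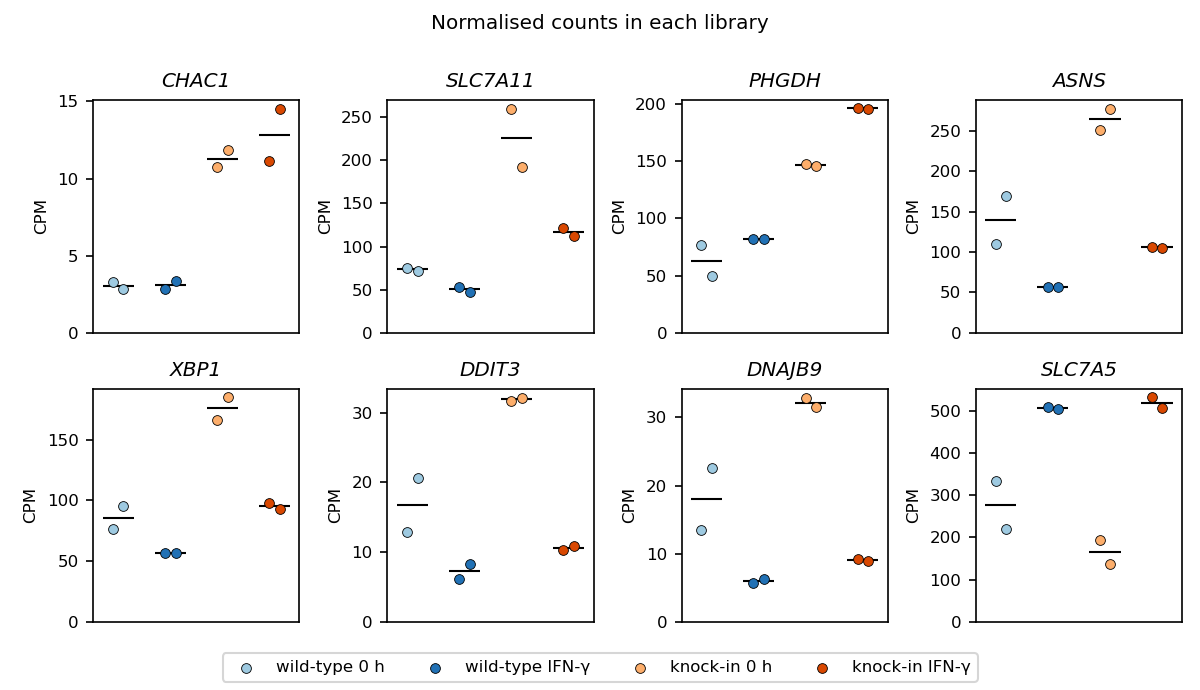
Normalised counts (CPM, linear axes from 0) of 8 genes in each library; points are single libraries, bars the means of 2, colours the 4 groups. CHAC1, SLC7A11, PHGDH, ASNS and XBP1 lie higher in knock-in than in wild-type libraries at the same time point, while DDIT3 and DNAJB9 are lowest and SLC7A5 highest after IFN-γ in both lines.

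The call count of the untreated comparison depended on single libraries. It was 11 with all 8, 18 without untreated wild-type library 2, and between 4 and 6 without any other single library. CHAC1, PHGDH, SLC7A11 and XBP1 were called in all 8 of these fits. Over all tested genes, those called higher in this comparison had a median transcript GC content of 43.4% and those called lower one of 54.8%. Between the treated lines these medians were 47.9% and 45.8%. With each library's trend on transcript GC content and length removed, all 11 calls between untreated lines kept their direction and passed the test. A further 6 genes passed, so that 14 were higher and 3 lower. Scaled to the spike-ins, where the median of all tested genes shifted to −0.35, 3 genes were called higher and 1 lower.

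Under IFN-γ the same contrast between the lines gave 5 of 36 genes called higher (13.9%) and 0 lower, where 1.63% of all tested genes were called higher and 1.28% lower. For the direction with 0 calls, 14 of the 36 genes had an unadjusted p under 0.05 in either direction, and DESeq2 called 7 genes, all higher. The 5 were CHAC1, ASNS, PHGDH, SLC7A11 and XBP1, all of which were also called in untreated cells; both comparisons take 1 estimate of spread from all 8 libraries. These 5 were thus 50% of the 10 genes called higher in untreated cells, where 29.9% of the 703 such genes in the whole table were called higher under IFN-γ as well. All 10 had values above 0 under IFN-γ, as had 98.3% of the 703. Whether the line difference changed with treatment is the interaction tested below.

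CHAC1 was at 2.86 and 3.35 CPM in treated wild-type and 11.1 and 14.5 CPM in treated knock-in cells (log2 2.05 ± 0.24, adjusted p = 0.00196), or 4.13-fold. SLC7A11 was at 53.5 and 47.8 CPM in wild-type and 121.7 and 112.1 CPM in knock-in cells (log2 1.21 ± 0.16, adjusted p = 0.00394). PHGDH was at 82.3 and 82.3 CPM in wild-type and 196.4 and 195.9 CPM in knock-in cells (log2 1.25 ± 0.18, adjusted p = 0.00672). In these 3 genes the knock-in libraries held more than 2-fold the wild-type level at both time points. ASNS was at 57.1 and 56.8 CPM in wild-type and 106.4 and 105.1 CPM in knock-in cells (log2 0.89 ± 0.19, adjusted p = 0.0390). XBP1 was at 56.4 and 56.7 CPM in wild-type and 97.5 and 93.2 CPM in knock-in cells (log2 0.75 ± 0.14, adjusted p = 0.0239). The replicate libraries of ASNS and XBP1 were close to each other, and the groups did not overlap.

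The other 6 genes called in untreated cells missed the threshold under IFN-γ. ATF4 had a log2 difference of 0.40 (adjusted p = 0.137), PSAT1 of 0.59 (adjusted p = 0.0801) and ATF5 of −0.88 (adjusted p = 0.172). DDIT3 was at 0.55 (adjusted p = 0.324), MTHFD2 at 0.34 (adjusted p = 0.238) and SEL1L at 0.23 (adjusted p = 0.614). The set medians were 0.42 for the ATF4-type genes, 0.43 for the regulators and 0.18 for the ER genes, beside −0.01 for all tested genes. The count of 5 became 10 and 11 without untreated wild-type library 1 or 2, 2 and 1 without treated wild-type library 1 or 2, and 2 and 3 without treated knock-in library 1 or 2. Only CHAC1 was called in all 8 of these fits. All 5 genes were called with the GC and length trend removed, where 10 genes were higher and 1 lower.

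**Figure D3:**
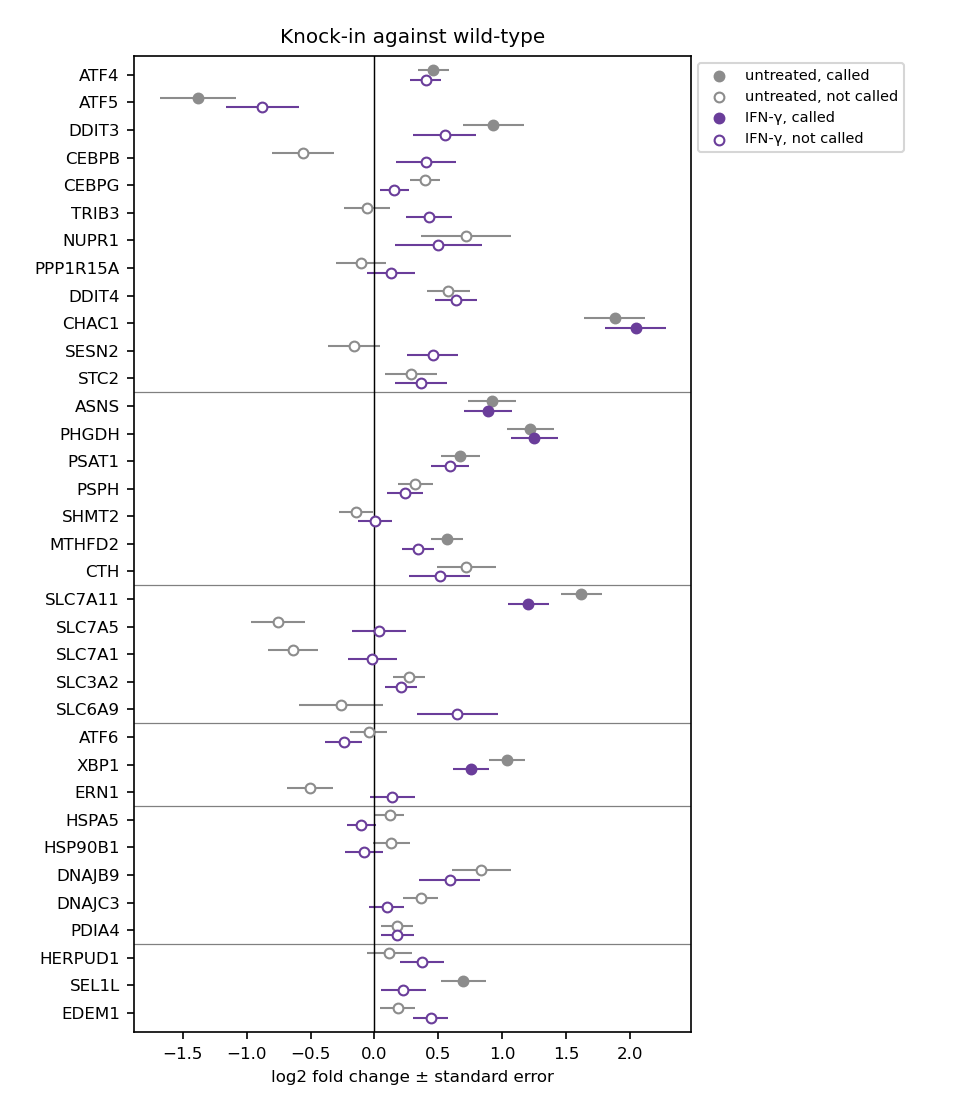
Log2 difference between knock-in and wild-type libraries for 35 genes (points) with its standard error (bars), in untreated cells (grey) and under IFN-γ (purple); filled points passed an adjusted p of 0.05. CHAC1, SLC7A11, PHGDH, ASNS and XBP1 are filled and to the right of 0 in both, and ATF5 is the one filled point to the left.

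The second question was how each line responded to 24 h of IFN-γ. In wild-type cells 6 of 36 genes were called higher (16.7%) and 14 lower (38.9%), where 17.1% of all tested genes were called higher and 20.8% lower. In knock-in cells 11 were called higher (30.6%) and 14 lower (38.9%), where 26.4% of all tested genes were called higher and 25.8% lower. The shares called higher were thus near the background of each line. The same 14 genes were called lower in both lines, and the 6 called higher in wild-type cells were among the 11 of the knock-in line. Over all tested genes, 93.5% of those called lower and 87.8% of those called higher in wild-type cells were called in the same direction in knock-in cells, which is 75.5% and 56.9% of the knock-in calls. The 2 responses compare different libraries but take 1 estimate of spread from all 8. The wild-type response shares its untreated libraries with the untreated line comparison above, as does the knock-in response.

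As fitted on the counts, the ER set was the lowest of the 3 in both lines. Its median log2 change was −0.52 in wild-type and −0.75 in knock-in cells, beside 0.08 and 0.12 over all tested genes. Transcript GC content ran from 40.3% to 53.5% in the ER set and from 41.9% to 66.2% in the regulators. In the tested ATF4-type genes it ran from 35.9% to 60.7%. These medians are not adjusted for GC content, and its part in the difference between the sets was not tested. With each library's GC and length trend removed, DNAJC3 was at −0.02 in wild-type and −0.03 in knock-in cells, and DNAJB9 at −0.85 and −0.92. DNAJB9 (chr7:108569568-108574850), a co-chaperone of HSPA5 and a known XBP1 target, fell most: from 13.5 and 22.6 CPM to 5.68 and 6.29 CPM in wild-type cells (log2 −1.59 ± 0.24, adjusted p = 0.00125). In knock-in cells it went from 32.9 and 31.5 CPM to 9.16 and 8.86 CPM (log2 −1.84 ± 0.24, adjusted p = 3.138e-04). Every treated library was below every untreated library of its line. HSP90B1 went from 1871 and 2577 CPM to 1332 and 1341 CPM in wild-type cells (log2 −0.73 ± 0.15, adjusted p = 0.00452). In knock-in cells HSP90B1 went from 2373 and 2506 CPM to 1259 and 1270 CPM (log2 −0.95 ± 0.15, adjusted p = 7.182e-04).

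ATF6, XBP1, DNAJC3 and SEL1L fell in both lines as well, by 0.52 to 0.63 on the log2 scale in wild-type and by 0.75 to 1.10 in knock-in cells. DNAJC3 encodes the ER co-chaperone p58IPK. HSPA5, the most general marker of ER stress, was at 651.8 and 744.2 CPM before and 869.5 and 852.4 CPM after IFN-γ in wild-type cells (log2 0.30, adjusted p = 0.0614). In knock-in cells HSPA5 was at 750.4 and 767.7 CPM before and 802.9 and 799.8 CPM after (log2 0.08, adjusted p = 0.606). PDIA4 rose in both lines by 0.37 (adjusted p = 0.0477 in wild-type and 0.0344 in knock-in cells). ERN1 rose in the knock-in line (log2 0.83 ± 0.18, adjusted p = 0.00373) and had a change of 0.19 in wild-type cells (adjusted p = 0.434). HERPUD1 and EDEM1, of ER-associated degradation, were not called in either line and lay between −0.19 and 0.15.

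Plasma cells are secretory cells rich in ER proteins, so their markers are given beside these values. In wild-type cells the marker sum went from 358.2 and 404.9 CPM to 3.93 and 4.04 CPM with treatment, so marker content and IFN-γ cannot be told apart there. For knock-in cells, the libraries numbered 1 held marker sums of only 2.56 CPM (untreated) and 3.11 CPM (with IFN-γ), and neither had immunoglobulin counts. With both libraries numbered 2 of the knock-in line left out, the log2 changes were −1.84 for DNAJB9, −0.92 for HSP90B1, −0.77 for XBP1, −0.83 for ATF6, −0.82 for DNAJC3 and −1.25 for SEL1L. These values rest on 1 library per arm, with the spread taken from the wild-type groups, and XBP1, ATF6 and DNAJC3 then missed the threshold (adjusted p between 0.0539 and 0.0680).

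In the ATF4-type set, of 7 tested synthesis genes 0 were called higher and 4 lower in wild-type cells, and 1 higher and 4 lower in knock-in cells. Of the 5 transporters, 2 were called higher and 1 lower in wild-type cells, and 3 higher and 1 lower in knock-in cells. Over all tested genes, 17.1% were called higher and 20.8% lower in wild-type cells, and 26.4% and 25.8% in knock-in cells. ASNS fell in wild-type cells from 109.8 and 169.9 CPM to 57.1 and 56.8 CPM (log2 −1.30 ± 0.19, adjusted p = 0.00108). In knock-in cells it fell from 251.1 and 277.6 CPM to 106.4 and 105.1 CPM (log2 −1.32 ± 0.19, adjusted p = 4.728e-04). The 2 treated libraries of each line were nearly equal and well below the untreated ones. MTHFD2, PSAT1 and CTH, which makes cysteine from cystathionine, fell in both lines too, by 0.47 to 0.81 in wild-type and by 0.55 to 1.02 in knock-in cells. PHGDH was not called: its change was 0.38 in wild-type (adjusted p = 0.129) and 0.42 in knock-in cells (adjusted p = 0.0836). SHMT2 rose in knock-in cells by 0.38 (adjusted p = 0.0357), and PSPH was not called in either line.

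Among the transporters SLC7A5 rose most. It went from 333.9 and 220.6 CPM to 509.4 and 505.0 CPM in wild-type cells (log2 0.87 ± 0.21, adjusted p = 0.0111). In knock-in cells it went from 193.4 and 135.9 CPM to 533.6 and 507.7 CPM (log2 1.66 ± 0.22, adjusted p = 3.242e-04). The treated libraries of the lines overlapped, with a log2 difference of 0.04 between them (95% interval −0.43 to 0.51), and the untreated knock-in libraries were the lowest. SLC7A1 rose by 0.58 in wild-type (adjusted p = 0.0416) and 1.20 in knock-in cells (adjusted p = 8.998e-04), and SLC6A9 by 1.32 in knock-in cells (adjusted p = 0.00739), beside 0.41 in wild-type cells (adjusted p = 0.350). SLC7A11 went the other way and fell by 0.54 in wild-type (adjusted p = 0.0270) and 0.95 in knock-in cells (adjusted p = 0.00101). SLC3A2 was not called in either line.

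The regulators likewise moved in both directions. DDIT3 fell from 12.9 and 20.6 CPM to 6.14 and 8.29 CPM in wild-type cells (log2 −1.22 ± 0.25, adjusted p = 0.00464). In knock-in cells it fell from 31.7 and 32.2 CPM to 10.3 and 10.9 CPM (log2 −1.60 ± 0.24, adjusted p = 6.269e-04). ATF4 fell by 0.35 (adjusted p = 0.0459) and 0.41 (adjusted p = 0.0176), and CEBPG by 0.43 and 0.67. TRIB3 and PPP1R15A rose in both lines, by 0.56 and 0.62 in wild-type and by 1.05 and 0.85 in knock-in cells. The secreted glycoprotein gene STC2 rose by 0.60 and 0.67. CEBPB, a C/EBP factor also induced by cytokines, rose in knock-in cells from 8.13 and 5.50 CPM to 17.8 and 13.7 CPM (log2 1.21 ± 0.24, adjusted p = 0.00234) and had a change of 0.25 in wild-type cells (adjusted p = 0.442). SESN2, a leucine sensor, rose in knock-in cells by 0.98 (adjusted p = 0.00294). CHAC1, the gene with the largest difference between the lines, was not called in either response (0.02 and 0.18).

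**Figure D4:**
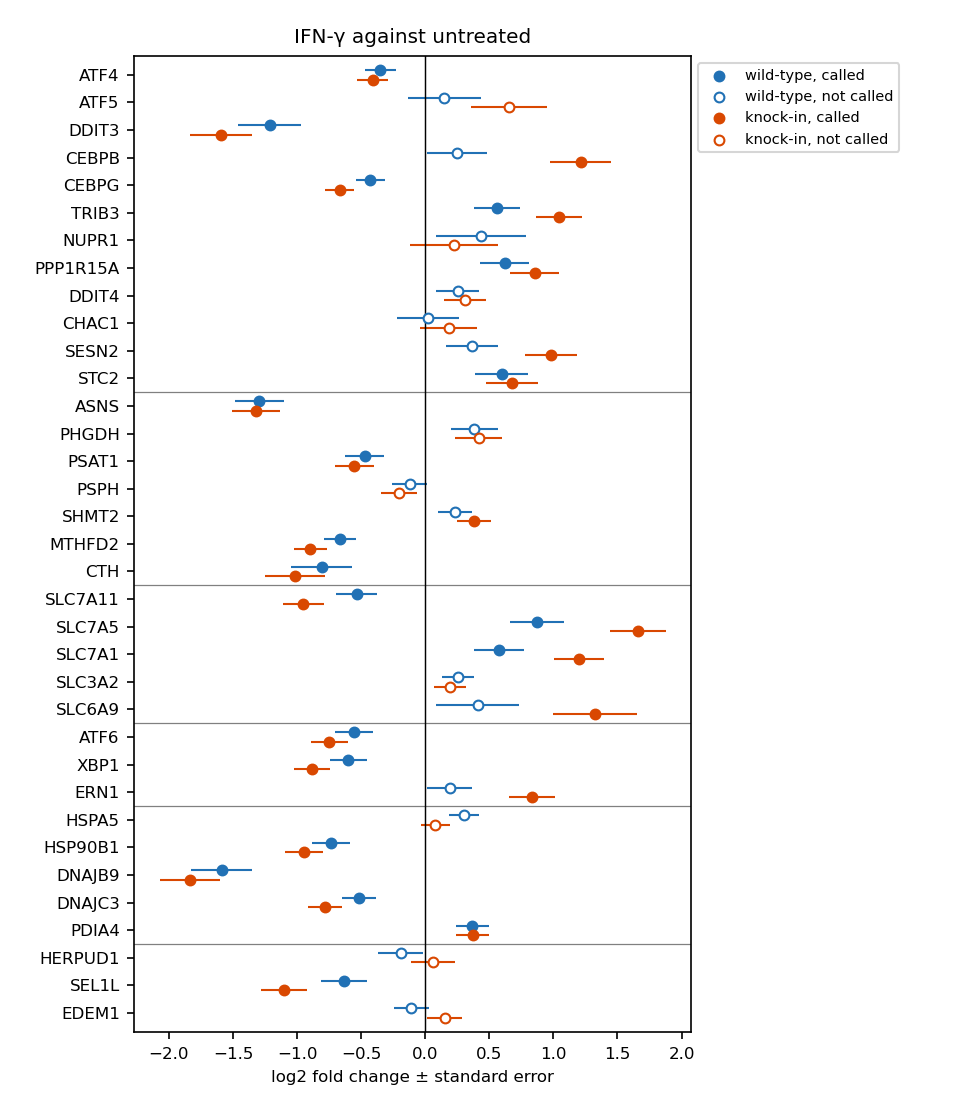
Log2 change with 24 h of IFN-γ for 35 genes (points) with its standard error (bars), in wild-type (blue) and knock-in cells (orange); filled points passed an adjusted p of 0.05. DNAJB9, ASNS and DDIT3 lie furthest to the left and SLC7A5 furthest to the right.

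Direction in these responses went with transcript GC content. The 11 genes called higher in knock-in cells had a GC content of 52.7% to 66.2%, pooled over each gene's annotated transcripts. Of the 14 called lower, 12 were under 50%, with a median of 42.8%. The same held for all tested genes, with a median GC of 57.0% for those called higher in knock-in cells and 42.1% for those called lower. With each library's GC and length trend removed, ATF4, ASNS, MTHFD2, ATF6, DNAJB9 and SEL1L were called in both lines with the same direction as before. DDIT3, XBP1, SLC7A5 and SLC7A1 were also called in knock-in cells, which makes 6 of the 20 wild-type calls and 10 of the 25 knock-in calls. The other calls were lost, and SHMT2 in knock-in cells was called in the opposite direction (−0.41). HSPA5 was then called higher in wild-type (0.45) and knock-in cells (0.33), and EDEM1 lower (−0.51 and −0.35). HSP90B1 was then at −0.10 in wild-type (adjusted p = 0.424) and −0.13 in knock-in cells (adjusted p = 0.265). Whether GC bias of the libraries has a part in these responses was not tested.

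**Figure D5:**
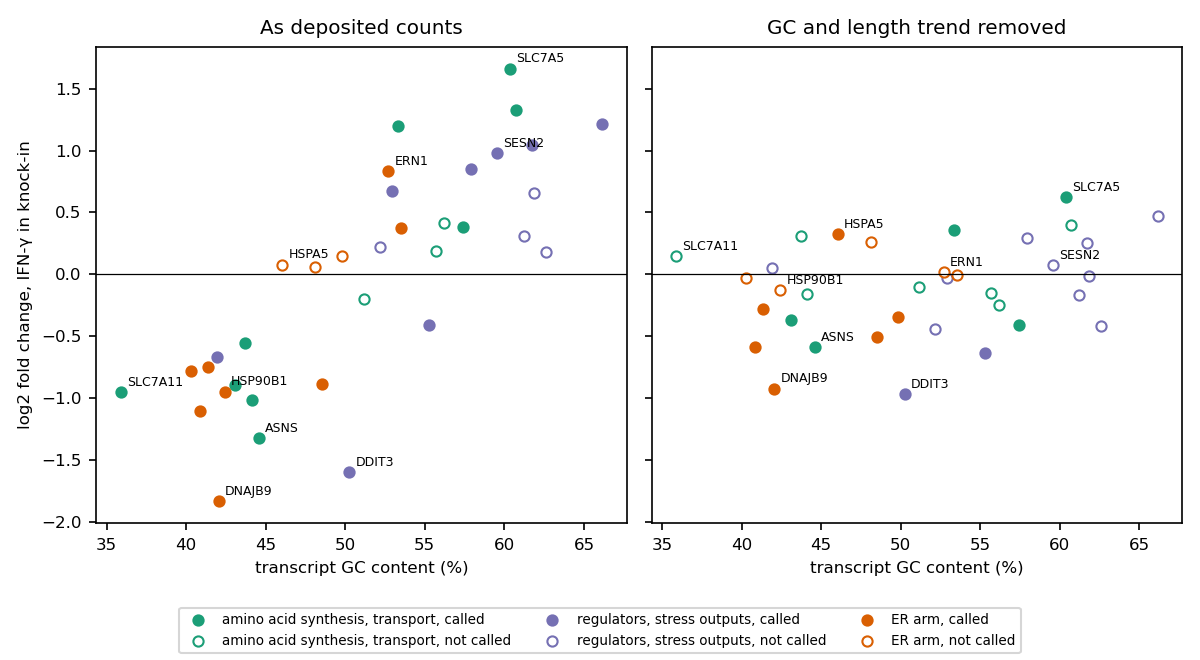
Log2 change with IFN-γ in knock-in cells against GC content (%) for 35 genes, pooled over each gene's annotated transcripts. The left panel is as fitted on the counts, the right with each library's GC and length trend removed. Colours are the 3 sets and filled points passed an adjusted p of 0.05. On the left no gene called higher is under 50% GC; on the right DDIT3 and DNAJB9 are lowest and SLC7A5 highest.

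Scaled to the spike-ins, whose share rose with treatment, the calls were 0 higher and 20 lower in wild-type and 1 higher and 16 lower in knock-in cells, and the median of all tested genes shifted to −0.72 and −0.41. Under that scale the rises of TRIB3, PPP1R15A, STC2, SLC7A1 and PDIA4 in wild-type cells took values below 0, so that higher and lower here are relative to the bulk of genes. The wild-type count of 20 became 5 and 7 without treated wild-type library 1 or 2, and 11 without untreated wild-type library 2 or either treated knock-in library. DDIT3, ASNS, MTHFD2, HSP90B1 and DNAJB9 were called in wild-type cells in all 8 fits that left out a library. In knock-in cells 18 of the 25 genes were called in all 8.

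The interaction, which asks whether the lines responded differently, called 0 of 36 genes higher and 0 lower, as it did of all tested genes (0% and 0%). At an unadjusted p under 0.05 there were 4 of the 36 genes and 1119 of all genes, and DESeq2 called 4 genes, none of them among the 36. Without untreated wild-type library 2, 19 of the 36 and 4916 of all genes had an unadjusted p under 0.05, with 0 of the 36 and 2 of all genes called. With all 8 libraries, the 4 with an unadjusted p under 0.05 were CEBPB, SLC7A5, ERN1 and SLC7A1. Their responses were greater in knock-in cells by 0.97 (95% interval 0.21 to 1.72), 0.79 (0.12 to 1.46), 0.64 (0.08 to 1.21) and 0.62 (0.01 to 1.24) on the log2 scale, each with an adjusted p of 0.688 in edgeR. For the genes with the clearest line differences the intervals spanned 0: −0.58 to 0.90 for CHAC1, −0.55 to 0.61 for PHGDH, −0.62 to 0.57 for ASNS, −0.73 to 0.16 for XBP1 and −0.92 to 0.09 for SLC7A11. A p that misses the threshold does not show that the lines responded alike.

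A further 109 genes of the same pathways, listed from the known members of each, gave 105 tested genes. In wild-type cells 22 were called higher (21.0%) and 29 lower (27.6%) with IFN-γ, beside 17.1% and 20.8% of all tested genes. In knock-in cells 32 were called in each direction (30.5%), beside 26.4% and 25.8% of all tested genes; these shares are also the background for the lists below. Among the eIF2 kinases and their partners, EIF2AK2 (PKR), an interferon-induced kinase, rose in wild-type cells by 1.01 ± 0.12 (adjusted p = 4.936e-04), from 136.8 and 127.2 CPM to 271.5 and 260.6 CPM. GCN1, the activator of the amino acid sensor GCN2, rose by 1.36 in wild-type and 1.78 in knock-in cells, and the eIF2B subunit EIF2B3 fell by 1.12 and 1.18.

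Of the 20 cytosolic aminoacyl-tRNA synthetases, 5 were called higher and 8 lower in wild-type cells, and 7 higher and 9 lower in knock-in cells. WARS1, the tryptophanyl-tRNA synthetase long known as an IFN-γ target, went from 95.1 and 70.8 CPM to 878.4 and 901.9 CPM in wild-type cells (log2 3.42 ± 0.17, adjusted p = 4.277e-06). In knock-in cells WARS1 rose by 3.77 ± 0.17. Of the 21 other ER chaperones and folding enzymes, 3 were called higher and 4 lower in wild-type cells, and 4 and 6 in knock-in cells. HSPA13 and DNAJC10 fell in both lines, by 1.29 and 1.15 in wild-type and by 1.67 and 1.46 in knock-in cells, and HYOU1, another ER chaperone, rose by 0.76 and 1.11. Of the 21 genes of ER-associated degradation, translocation and transport, 2 and 4 were called higher and 7 and 7 lower, and the translocon subunits SEC61G and SEC61B fell by more than 1 on the log2 scale in both lines.

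Between the lines, 5 of the 105 genes were called higher (4.76%) and 3 lower (2.86%) in untreated cells, beside 4.26% and 4.17% of all tested genes. Under IFN-γ 4 were called higher (3.81%) and 1 lower (0.952%), beside 1.63% and 1.28%. AARS1, the alanyl-tRNA synthetase, was higher in knock-in cells at both time points, at 257.1 and 258.5 CPM against 173.9 and 155.1 CPM untreated (log2 0.65 ± 0.12, adjusted p = 0.0142) and by 0.62 under IFN-γ. SARS1 was higher in untreated cells (0.66) and CARS1 under IFN-γ (0.98), as was the neutral amino acid transporter SLC1A4 (1.31). The retrieval receptor KDELR3 was higher at both time points (0.65 and 0.76) and the ubiquitin-conjugating enzyme UBE2G2 lower (−1.48 and −1.13). NDRG1, a stress-responsive gene, was lower in untreated knock-in cells (−1.28), as was TXNDC11 (−0.59). JDP2 (1.06) and HSPA13 (0.85) were called higher in the same comparison.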

How the data were processed

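Per Ensembl gene ID and library, the deposited values are estimated counts that the authors made with Trimmomatic and kallisto on GRCh38, per the submitters' processing notes. No source used here gives versions, annotation or strand setting. The estimated counts were rounded, 63 spike-in rows were left out, and genes were kept with edgeR's filterByExpr at a minimum count of 10, which left 16519 of 40295 IDs. Names, positions, lengths and GC content came from GENCODE 29.

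Groups were compared with edgeR 4.0.16 (R 4.3.3): TMM scaling, a quasi-likelihood fit with 1 mean per group over all 8 libraries, and Benjamini-Hochberg adjustment over all tested genes, with 0.05 as threshold. Levels are CPM after TMM scaling, and fold changes are log2 with standard errors. The biological coefficient of variation was 20.4% over 8 libraries of at least 20901909 counts. Alternatives, including DESeq2 1.42.0, size factors, spike-in scaling, filters, a replicate block, a loess correction for GC content and length (span 0.3, known for 92.4% of tested genes) and leaving out libraries, were tried.

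All 37 genes are described, with full statistics for the called genes of largest change in each group and for those that differ between the lines; other pathway genes are given as counts with at most 3 named per list and comparison. The genes and lists were chosen with earlier results of these data known, so no p is given over a list. A changed sign counted as a reversal where either value was called.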

Additional observations from a re-analysis of the deposited data

How the results depend on the processing

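Of the 3198 values that the alternatives gave for the genes, 2809 kept their side of the threshold, 264 lost their call, 91 gained one and 34 reversed. The 2809 kept direction where the gene was called, but values called in neither fit could change sign. SHMT2 in wild-type cells, for example, went from 0.23 to −0.27 with the GC and length trend removed and was called in neither fit. The causes of these changes were not tested. In wild-type cells the 20 calls with IFN-γ became 8 with the GC and length trend removed, 7 with the replicate block and that trend together, 9 with only the groups compared in the fit, 8 without both knock-in libraries numbered 2, and between 5 and 22 in the leave-one-out fits. In knock-in cells the 25 calls became 13 with the trend removed, 12 with replicate block and trend, 11 without both knock-in libraries numbered 2, and between 19 and 26 in the leave-one-out fits. The 11 calls between untreated lines became 17 with the trend removed, 5 with only the groups compared, 4 with spike-in scaling, 2 without both knock-in libraries numbered 2, and between 4 and 18 in the leave-one-out fits. The 5 calls between treated lines became 11 with the trend removed, 10 with replicate block and trend, 8 without the filter, 17 with only the groups compared, 2 with spike-in scaling, 1 without both knock-in libraries numbered 2, and between 1 and 11 in the leave-one-out fits. The interaction gave 1 call without the filter (SLC7A5) and 0 otherwise; a fit of only the groups compared cannot be made for it. A lone library of a group was assumed to vary like the other groups.

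The replicate block gave 19, 25, 13, 5 and 0 calls for the 5 comparisons. The labels do not say that equal numbers mark a shared culture. Deviations of same-numbered libraries correlated at 0.014 in wild-type and 0.27 in knock-in cells over 16519 genes. In the knock-in line, same-numbered libraries were also alike in their plasma cell and B cell marker sums. These were 2.56 and 3.11 CPM for number 1 and 353.4 and 279.5 CPM for number 2. The main fit did not take the numbers as pairs, and whether they mark pairs in the knock-in line is not known.

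Values that reversed with spike-in scaling in wild-type cells were −0.28 for TRIB3, −0.22 for PPP1R15A, −0.18 for STC2, −0.59 for SHMT2, −0.26 for SLC7A1, −0.56 for SLC3A2, −0.48 for HSPA5, −0.45 for PDIA4, −0.0719 for HYOU1, −0.17 for TRAF2 and −0.23 for CREB3L2. In knock-in cells they were −0.15 for SHMT2, −0.45 for HSPA5 and −0.16 for PDIA4. With the GC and length trend removed they were 0.0698 for CEBPG, 0.21 for PSAT1, 0.11 for SLC7A11 and −0.0344 for SLC7A1 in wild-type cells, and 0.0496 for CEBPG, −0.0283 for STC2, 0.31 for PSAT1, −0.41 for SHMT2, 0.15 for SLC7A11, −0.008 for PDIA4 and −0.35 for EDEM1 in knock-in cells. With replicate block and trend together they were 0.0705 for CEBPG, 0.21 for PSAT1, −0.27 for SHMT2, 0.11 for SLC7A11 and −0.0315 for SLC7A1 in wild-type cells, and 0.0494 for CEBPG, −0.0252 for STC2, 0.31 for PSAT1, −0.41 for SHMT2, 0.15 for SLC7A11, −0.0061 for PDIA4 and −0.35 for EDEM1 in knock-in cells. Low counts limited VLDLR, NUPR1 and SLC6A9, and CBS could not be tested.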
